A study of Mus musculus with 56 samples.

Results

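The replication-dependent histone genes of the mouse were followed as 82 regions of open chromatin out of the 297361 regions measured in the series. The members were the peaks whose centre lay within 2 kb of the transcription start site (TSS) of a protein-coding gene with a symbol beginning Hist1h, Hist2h, Hist3h or Hist4h in the mm10 annotation, each peak taken once. Of 67 such genes, 63 had at least 1 peak, and the genes without a peak were Hist1h2aa, Hist1h2ba, Hist1h2bq and Hist1h2br. The genes stand so close together that 48 of the 82 peaks lay within 2 kb of more than 1 of them, so a peak is named here by its nearest histone TSS, and a second peak of a gene carries its distance in bp, as in Hist1h1c(+969). The assay was bulk ATAC-seq: a transposase enters chromatin where it is open and leaves sequencing adapters at its cuts. The 56 libraries, of 1000 cells each, came from 28 clones of granulocyte-monocyte progenitors (GMP). The clones were grown from single sorted cells of Tet2 fl/fl bone marrow. The paper's results name a Tet2 fl/fl mouse as their source, while its reporting summary names lines from mice of both sexes. The number of animals is therefore not settled, and the sex of each clone is not in the labels. A retroviral Hoxb8-ER, a Hox factor fused to an oestrogen receptor domain, kept all clones as progenitors in 0.5 µM beta-estradiol. Sister lines were made from each clone with an integrase-defective lentivirus at a multiplicity of infection of 200, coding for Cre in the Tet2 KO line and for GFP in the control line. The groups were 4 KO and 4 control lines of clones derived and kept in GM-CSF at 10 ng/ml (clones 19 to 22), and 24 KO and 24 control lines of clones in conditioned medium with about 100 ng/ml SCF (clones 1 to 5, 7 to 18 and 23 to 29). GM-CSF directs such cells towards monocytes and macrophages and SCF towards granulocytes. Each clone is 1 replicate and descends from 1 cell, all cells were immortalized in culture, and no clone was grown in both cytokines. In bulk cells, fewer open cells and less opening per cell cannot be told apart.

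Replication-dependent histone genes encode the bulk of the core histones H2A, H2B, H3 and H4 and of the linker histone H1, and they are transcribed mainly in S phase, when new DNA has to be packed. They occur in many near-identical copies that are gathered in clusters, most have no intron, and their mRNAs end in a stem-loop bound by Slbp in place of a poly(A) tail. Npat, a substrate of cyclin E and Cdk2, activates them in nuclear bodies that form over the clusters. Class-specific promoter elements help to tie them together. H2B promoters carry an octamer, the site of Oct1 (Pou2f1), many promoters carry CCAAT boxes, the site of the NF-Y complex, H1 promoters carry an AC-rich box, and H4 promoters are bound by Hinfp. Many H2A and H2B genes are arranged head to head and share the short stretch between them.

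The stretches below are those in front of the genes on which the results turn, with 1 shared H2A/H2B promoter that did not pass the test in any comparison shown beside the 1 that did. They come from RefSeq (GRCm38.p6, the assembly of mm10) and are written 5′ to 3′ towards the named gene, or towards the H2B gene of a pair. Capitals mark, on either strand, the octamer ATTTGCAT, the CCAAT box CCAAT, the TATA box TATAAA and the H1 AC box AAACACA, and none of these motifs contains another.
Hist1h2ac/Hist1h2bc, between the start sites, chr13:23683949-23684198, plus strand: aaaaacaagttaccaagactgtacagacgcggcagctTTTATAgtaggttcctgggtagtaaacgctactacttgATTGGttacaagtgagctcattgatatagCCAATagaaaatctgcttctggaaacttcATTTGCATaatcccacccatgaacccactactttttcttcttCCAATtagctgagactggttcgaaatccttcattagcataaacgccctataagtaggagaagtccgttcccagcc
Hist1h2ae/Hist1h2bg, between the start sites, chr13:23571221-23571395, plus strand: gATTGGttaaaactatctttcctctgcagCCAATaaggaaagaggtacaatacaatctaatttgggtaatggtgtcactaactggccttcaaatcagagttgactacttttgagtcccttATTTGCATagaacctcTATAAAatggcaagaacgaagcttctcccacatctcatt
Hist1h1a, 150 bases before the start site, chr13:23763516-23763665, plus strand: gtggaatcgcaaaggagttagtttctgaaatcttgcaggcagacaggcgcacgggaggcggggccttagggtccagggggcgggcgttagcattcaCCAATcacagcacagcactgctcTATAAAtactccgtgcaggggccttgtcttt
Hist1h1e, 150 bases before the start site, chr13:23622559-23622708, minus strand: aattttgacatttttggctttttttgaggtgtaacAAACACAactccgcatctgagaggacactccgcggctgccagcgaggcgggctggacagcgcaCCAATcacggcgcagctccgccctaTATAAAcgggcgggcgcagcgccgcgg
Hist1h4h, 150 bases before the start site, chr13:23530900-23531049, plus strand: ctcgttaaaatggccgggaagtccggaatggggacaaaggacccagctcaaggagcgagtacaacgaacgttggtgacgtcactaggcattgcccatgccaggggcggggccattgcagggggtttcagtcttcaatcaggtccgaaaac
Hist1h4a, 150 bases before the start site, chr13:23761231-23761380, minus strand: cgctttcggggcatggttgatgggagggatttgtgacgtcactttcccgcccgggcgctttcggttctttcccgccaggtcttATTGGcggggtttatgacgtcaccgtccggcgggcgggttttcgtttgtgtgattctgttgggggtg

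Some of the motifs followed the classes. RefSeq promoters (250 bases before to 50 after the start) matched 62 of the 67 genes. The octamer lay in 13 of the 62 (21.0%), against 1.75% of all 27025 promoters of the same length, and it was found in 6 of 16 H2B and 7 of 18 H2A promoters and in no H1, H3 or H4 promoter. It was thus about as frequent in H2A (38.9%) as in H2B promoters (37.5%), and an octamer in a shared stretch can be counted for both genes of a pair. A CCAAT box lay in 85.5% of the histone promoters, against 37.9% of all promoters, with every H1, H2A, H2B and H3 promoter holding one and 3 of 12 H4 promoters. TATAAA was present in 56.5% of histone promoters, against 14.2% of all, and the AC box in 5 of 6 H1 promoters, against 7.14% of all promoters. As printed, the stretch between Hist1h2ac and Hist1h2bc holds an octamer, 3 CCAAT boxes and a TATA box, that between Hist1h2ae and Hist1h2bg an octamer, 2 CCAAT boxes and a TATA box, while the stretch before Hist1h4h holds none of the 4 motifs. A match here describes letters and is no evidence of binding.

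The H2A and H2B genes formed 12 head-to-head pairs with 176 to 306 bp between the start sites. A peak lay at 9 of them, and its centre was nearer to the H2B start in 8 and nearer to the H2A start in 1, Hist2h2ac/Hist2h2be. The centres lay 6 to 316 bp (median 50) from the H2B start and 77 to 334 bp (median 301) from the H2A start. All 12 intervals held a CCAAT box, and 5 held an octamer. The pairs without a peak were Hist1h2ao/Hist1h2bq, Hist1h2ap/Hist1h2br and Hist1h2aa/Hist1h2ba. Hist1h2aa and Hist1h2ba encode testis histones. Because the copies resemble each other, reads can be placed wrongly or lost: 41 of the 82 peaks, and 27 of the 38 that covered a start site, held a stretch of at least 100 bp with at least 95% identity to another place in the genome. The Hist1h2bc peak had 12 such copies, the longest 176 bp at 97.2% identity, whereas the Hist1h1a and Hist1h4a peaks had none. How the alignment treated such copies is not given in the sources at hand, and its part in the values was not tested.

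Library totals ranged from 39379 to 468878 counts in GM-CSF KO lines, from 88234 to 766838 in GM-CSF control lines, from 130049 to 1079233 in SCF KO lines and from 102302 to 1042973 in SCF control lines. The members took 41211 counts, 0.184% of all counts in 0.0276% of all peaks, with a median of 5 counts per peak and library, so single values of shallow libraries rest on a few counts. Promoter peaks of 12 progenitor marker genes summed to medians of 155, 185, 346 and 307 CPM (counts scaled to a common library total) in GM-CSF KO, GM-CSF control, SCF KO and SCF control lines. The sums were 23.1, 25.3, 46.0 and 49.6 CPM for 8 lymphoid genes, and 14.5, 21.3, 38.9 and 38.8 CPM for 6 erythroid and megakaryocytic genes. These sums run over unlike numbers of genes. In the same order of groups, 3, 1, 7 and 7 of the 12 progenitor genes had a mean over 20 CPM. Few did so in GM-CSF lines, where the Mpo start peak had 6.69 CPM in KO and 5.99 CPM in control lines. The Elane start peak had 4.50 to 9.89 CPM over the 4 group means. No peak lay on exon 3 of Tet2, the exon that Cre removes, so the deletion could not be checked in these data. The paper measured the deletion by quantitative PCR and reports it as nearly complete in every clone. The share of counts on chromosomes 13 and 3, which carry the large clusters, stayed between 0.938 and 1.05 times the median over the libraries. The share on chromosome X did set libraries apart: it was 0.714 to 0.840 times the median in GM-CSF clones and 0.739 to 0.915 times in SCF clones 23 to 29, against 0.961 to 1.09 times in SCF clones 1 to 18, so the cytokines are not balanced for it.

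The open sites sat on the start of the genes. In the plot of level against distance, the 38 peaks that covered a histone TSS, with a centre no more than 150 bp away, had a median of 30.6 CPM and ranged from 3.65 to 77.1 CPM, each level being the mean of the 4 group means. They held 72.0% of all member counts. The 13 upstream peaks that did not cover a TSS had a median of 5.46 CPM and the 31 downstream peaks one of 5.87 CPM. The 34 peaks whose centre lay more than 500 bp from any histone TSS had a median of 5.14 CPM. Distances were taken from the starts of the GENCODE annotation. By these the Hist1h1d peak, at 27.3 CPM, is among the 34, but the RefSeq start of Hist1h1d lies 1770 bp from the GENCODE start. Peaks away from a start but high in level were the Hist1h4a peak, the Hist1h1c(+969) peak at 42.9 CPM, and peaks of Hist1h2bb (35.4 CPM, 309 bp upstream) and Hist4h4 (35.5 CPM, 187 bp downstream).

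**Figure D1:**
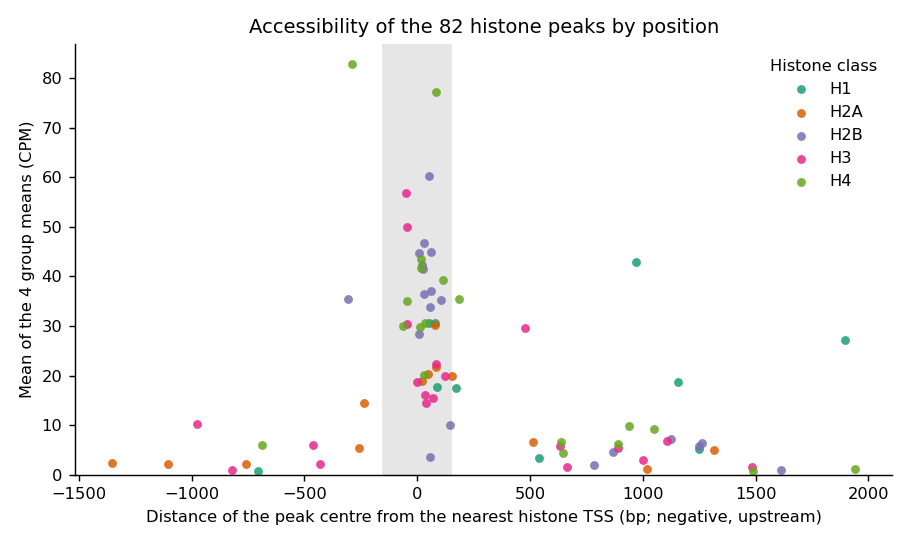
Level of each of the 82 histone peaks (CPM, mean of the 4 group means) against the distance of its centre from the nearest histone TSS in bp, with negative values upstream, colours for the histone classes and a grey band for centres within 150 bp. Most peaks over 30 CPM stand in the band, where the median was 30.6 CPM, and peaks beyond 500 bp had a median of 5.14 CPM.

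The highest peak of all belonged to the H4 gene Hist1h4a (chr13:23761367-23761667), centred 287 bp upstream of its start, between it and the H3 gene Hist1h3a. It had 97.9, 25.4, 74.6 and 57.1 CPM in the KO lines and 87.0, 34.0, 86.5 and 83.5 CPM in the control lines of GM-CSF clones 19 to 22. In SCF clones it had 75.2 to 134 CPM in KO lines (median 100.2) and 54.8 to 126 CPM in control lines (median 97.5). All 4 groups overlapped, and the lowest values came from clone 20, whose peak rests on 1 and 3 counts.

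After Hist1h4a (82.8 CPM as the mean of the 4 group means) came Hist1h4h, another H4 gene (77.1 CPM), the shared Hist1h2bc/Hist1h2ac promoter (60.3 CPM), and the H3 genes Hist1h3g (56.8 CPM) and Hist1h3e (49.9 CPM). The shared H2B/H2A promoters of Hist1h2bk (46.8 CPM), Hist1h2bj (45.0 CPM) and Hist1h2bf (44.8 CPM) completed the first 8, which held 26.2% of the member counts. The SD over clones of each of the last 4 exceeded the steps between them, so their order does not stand beyond the spread. The plot of the 16 highest peaks gives the level of each group.

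**Figure D2:**
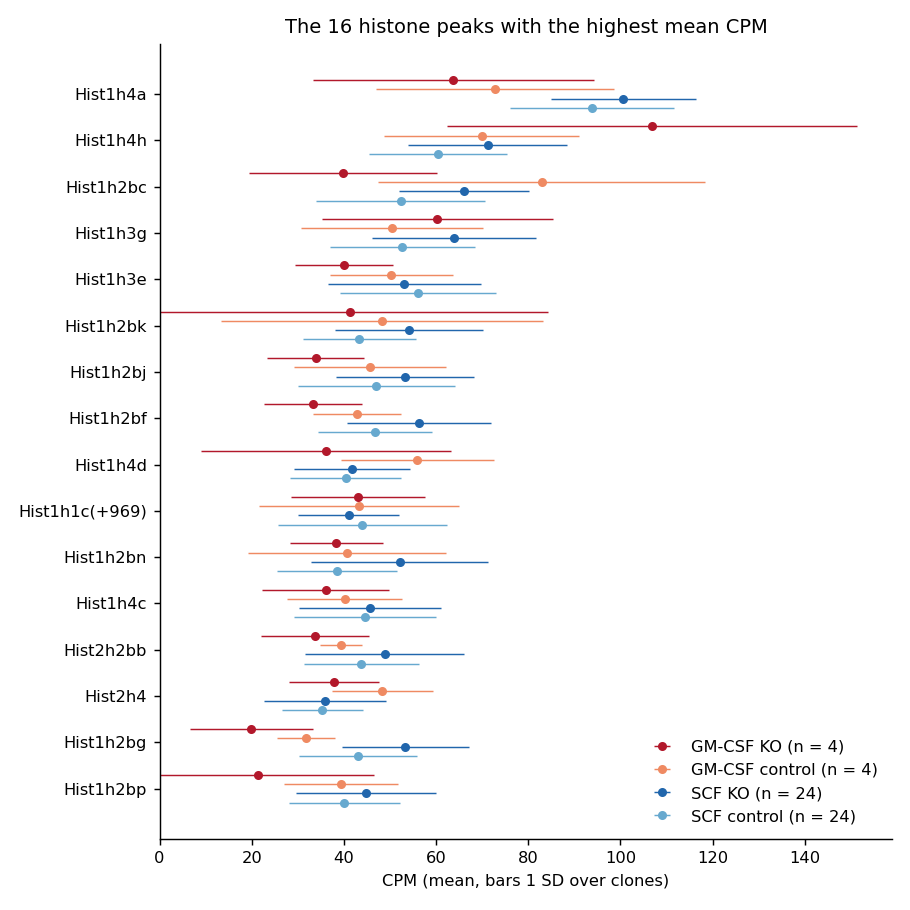
Mean CPM of the 16 histone peaks with the highest mean level in GM-CSF KO (n = 4), GM-CSF control (n = 4), SCF KO (n = 24) and SCF control lines (n = 24), with bars of 1 SD over clones that are not drawn below 0. Hist1h4h is highest in GM-CSF KO lines and Hist1h2bc in GM-CSF control lines, both with wide bars, and for most other peaks the bars of the 4 groups overlap.

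By class, the median peak had 34.5 CPM for H2B (20 peaks), 29.7 CPM for H4 (19), 18.2 CPM for H1 (10), 12.4 CPM for H3 (20) and 6.61 CPM for H2A (13). The low H2A value goes with its peaks' positions, since at 8 shared promoters the peak was counted to the nearer H2B start. Among peaks that covered a TSS the medians were 37.0 CPM for H2B (13 peaks), 35.0 CPM for H4 (9), 30.5 CPM for H1 (3), 21.0 CPM for H2A (4) and 19.9 CPM for H3 (9). The highest H1 peak was Hist1h1c(+969), the highest H2A peak Hist2h2ac (30.2 CPM). The lowest of each class were peaks away from a start: Hist1h1t(-707) at 0.820 CPM, beside the testis H1 gene, Hist1h4n(+1487) at 0.824 CPM, Hist2h3b(-820) at 0.907 CPM, Hist1h2bm(+1613) at 1.05 CPM and Hist3h2a(+1018) at 1.19 CPM.

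All 4 clusters had open members. The large Hist1 cluster on chromosome 13 held 60 peaks, led by Hist1h4a. Hist2 on chromosome 3 held 15, led by the H2B gene Hist2h2bb with 41.4 CPM. Hist3 on chromosome 11 held 4, led by Hist3h2a with 19.9 CPM, and the single gene of Hist4, Hist4h4 on chromosome 6, had peaks at 35.5, 5.92 and 1.10 CPM. The 11684 peaks that covered the start of another protein-coding gene were mostly less open: the 38 histone peaks had medians of 25.6, 26.6, 35.1 and 33.4 CPM in GM-CSF KO, GM-CSF control, SCF KO and SCF control lines, against 13.3, 15.2, 17.6 and 18.6 CPM for the other starts, and the histone median stood at percentiles 67.6, 65.8, 69.8 and 68.1 of the others. They were less GC-rich, with a median of 57.8% GC against 63.8% for the other start peaks. Between SCF control lines, the variation beyond counting noise (edgeR's biological coefficient of variation) had a median of 7.05% over the 26 members abundant enough for that estimate, against 6.60% over all 6308 such peaks.

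The summed accessibility of the members gives the level of the whole set. It was 1457 ± 144 CPM in GM-CSF KO lines and 1691 ± 182 CPM in their control lines (SD, n = 4 each), and 1902 ± 303 CPM in SCF KO lines and 1750 ± 258 CPM in SCF control lines (SD, n = 24 each). The KO line was the lower of its clone in 4 of 4 GM-CSF pairs and the higher in 18 of 24 SCF pairs. In GM-CSF clone 21 the 2 lines were nearly equal, with 1627 CPM in KO and 1638 CPM in control. The KO libraries of clones 19 and 20 are shallow, with 40876 and 39379 counts in all, so the 4 pairs do not show an even drop. Scaled to promoter counts instead, it was lower in 4 of 4 GM-CSF pairs and higher in 17 of 24 SCF pairs, and among the 38 peaks on a start it was lower in 3 of 4 GM-CSF pairs. No test was made of these sums, and the groups overlap. In SCF clones the KO mean exceeded the control mean in both clone sets, with 1854 against 1731 CPM in clones 1 to 18 and 2018 against 1797 CPM in clones 23 to 29.

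**Figure D3:**
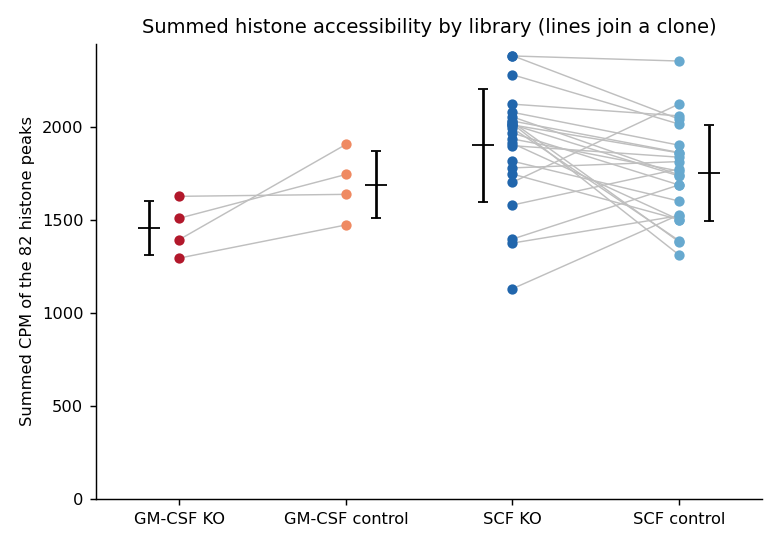
Summed CPM of the 82 histone peaks in each library, by group, with grey lines joining the KO and control line of a clone and black bars for the mean ± 1 SD. The 4 GM-CSF KO lines, from 1295 to 1627 CPM, each lie below their own control line, in clone 21 only barely (1627 against 1638 CPM). SCF KO lines lie above theirs in 18 of 24 clones.

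Within the sums, the H2B class stood at 404 ± 80.2 CPM in GM-CSF KO lines and 527 ± 38.3 CPM in GM-CSF control lines, and at 628 ± 121 CPM in SCF KO lines and 551 ± 95.7 CPM in SCF control lines. The KO line was the lower in 4 of 4 GM-CSF pairs and the higher in 17 of 24 SCF pairs. H4 differed little in mean, with 519, 526, 510 and 483 CPM in GM-CSF KO, GM-CSF control, SCF KO and SCF control lines. Set against the other promoter counts of chromosome 13, the Hist1 cluster gave 95.3 and 108.3 counts per 1000 in GM-CSF KO and control lines and 109.5 and 104.4 in SCF KO and control lines. The order of KO and control within each cytokine was the same on this scale.

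Tet2 encodes an enzyme that oxidizes methylated cytosine, and the first comparison asked whether its loss changed accessibility of histone promoters in SCF clones. A single histone peak rose in KO lines, at the shared Hist1h2bc/Hist1h2ac promoter (chr13:23684099-23684399), and none fell among the 34 of 82 members with enough counts for the test. It had 30.8 to 93.6 CPM in KO lines (median 67.9) and 8.69 to 88.0 CPM in control lines (median 50.9). The ranges overlap, but the KO line was the higher in 19 of 24 clones, with means of 66.1 ± 14.0 CPM in KO and 52.4 ± 18.3 CPM in control lines (SD, n = 24 each). Its log2 fold change was 0.35 ± 0.09 (SE), with a Benjamini-Hochberg adjusted p of 0.00541 in edgeR's quasi-likelihood test with the clone as a block. A peak was called at an adjusted p at or under 0.01, and of all 7871 peaks tested 2.50% were called, so 1 member in 34 is near that background.

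Other H2B promoters had positive values without passing the limit. Hist1h2bn, a peak shared with Hist1h2ak, had a log2 fold change of 0.37 with an edgeR adjusted p of 0.0119 and was higher in KO in 20 of 24 clones. Hist1h2bk had 0.32 with an edgeR adjusted p of 0.0246, and Hist1h2bg, whose promoter also holds an octamer, had 0.27 with an edgeR adjusted p of 0.0824. Hist1h2bn, Hist1h2bg and the H1 gene Hist1h1e (0.31, edgeR adjusted p 0.0844) are named after their values were seen. Of 12 H2B peaks tested, 10 had a positive log2 fold change, beside 70.6% of the 34 members and 48.2% of all peaks tested. The H2B median was 0.14, beside 0.06 over the 34 members and -0.01 over all peaks tested. The Hist1h2bc, Hist1h2bn and Hist1h2bk peaks each had 12 near copies of the kind described above, and Hist1h2bg had 11. Reads can be placed wrongly among such copies, so these peaks may not be independent, which was not tested. The 5 H3 peaks tested also had a median of 0.14, with 3 positive, and the 10 H4 peaks had one of 0.04, with 6 positive. Hist1h2bn, whose value was the largest of the H2B peaks, has no octamer in its RefSeq promoter. At an unadjusted p under 0.05, 7 members were higher (20.6%) and 1 was lower (2.94%), the last being Hist1h1c(+969) at -0.25, beside 10.9% and 7.94% of all peaks tested.

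The share of counts in promoter peaks was 44.8 ± 5.26% in KO lines and 43.1 ± 4.11% in control lines of SCF clones (SD, n = 24 each). It was higher in KO in 16 of 24 SCF clones and in 2 of 4 GM-CSF clones, and the difference was not tested. With that share as a covariate, Hist1h2bc kept a log2 fold change of 0.33 and had an edgeR adjusted p of 0.0274. DESeq2 gave it 0.34 with an adjusted p of 0.0403, and its adjusted p ranged from 0.00203 to 0.404 over all alternatives, the highest in the 7 clones 23 to 29 alone.

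**Figure D4:**
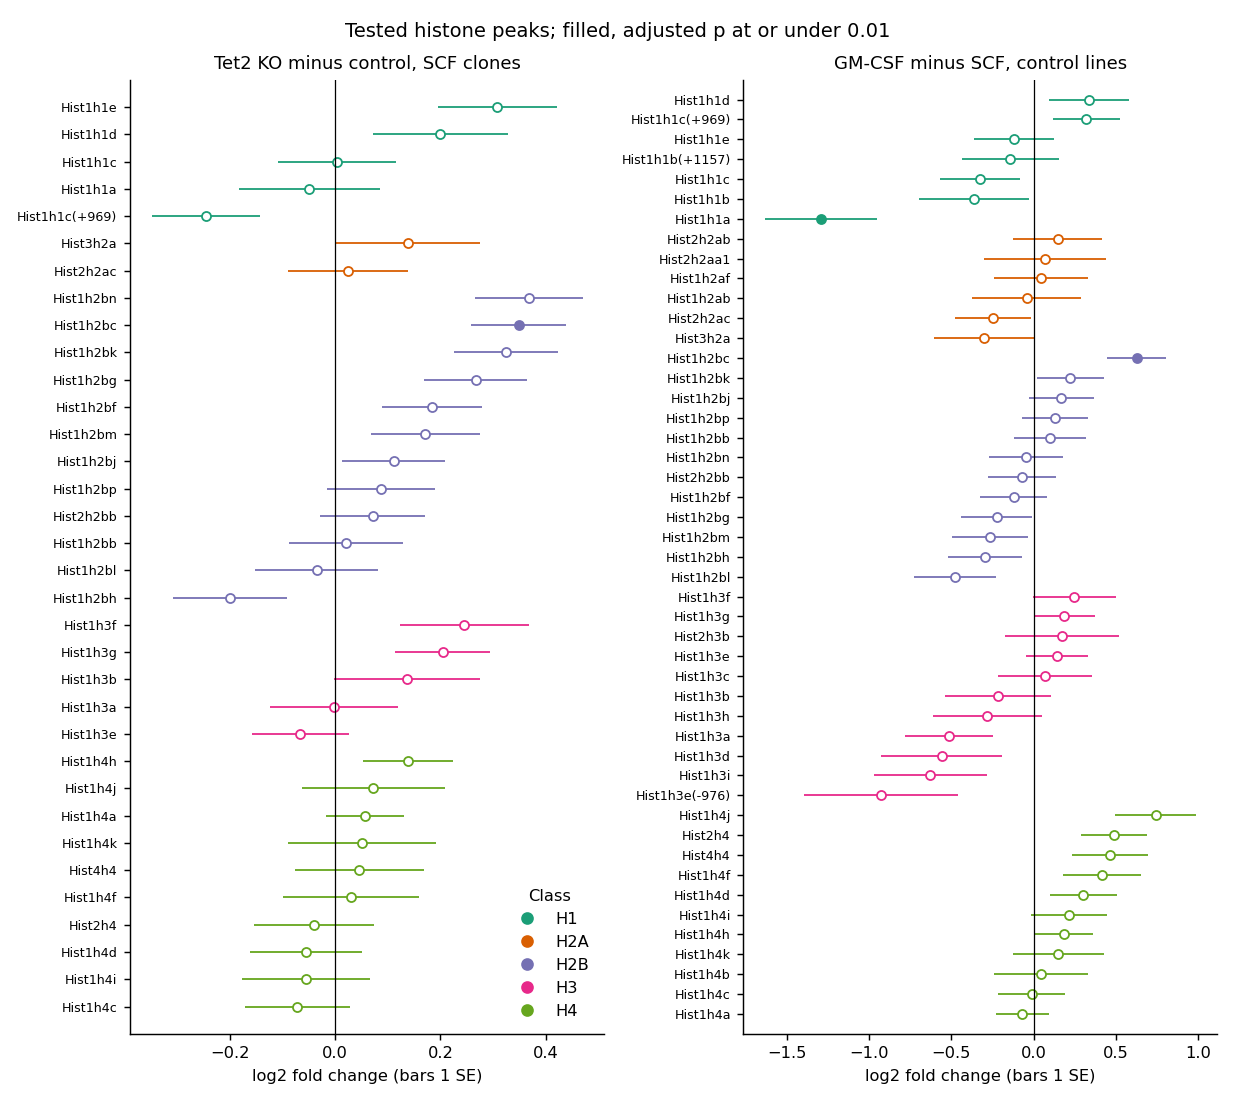
Log2 fold changes (bars 1 SE) of the tested histone peaks by class, for Tet2 KO minus control in SCF clones (left, 34 peaks) and for GM-CSF minus SCF control lines (right, 47 peaks), with filled points at an adjusted p at or under 0.01. Hist1h2bc is filled in both panels at 0.35 and 0.63, Hist1h1a is filled at -1.29 on the right, and H2B points on the left lie mostly above 0.

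The second comparison asked which histone peaks differ between the cytokines, in control lines. A peak was lower in GM-CSF clones at the linker histone gene Hist1h1a and another was higher, again at Hist1h2bc, among 47 members tested. Of all 13171 peaks 14.7% were called, but of the 8710 other promoter peaks only 3.34% were called higher and 3.74% lower, so 1 member of 47 in each direction (2.13%) is near the background of like peaks. Hist1h1a (chr13:23763604-23763904, centred 88 bp after the start) had 0, 0, 9.20 and 13.0 CPM in GM-CSF clones 19, 20, 21 and 22, and 18.5 to 48.9 CPM in SCF clones (median 25.8). No GM-CSF control reached the lowest SCF control. Its means were 5.56 ± 6.61 CPM (SD, n = 4) and 26.9 ± 7.26 CPM (SD, n = 24), with a log2 fold change of -1.29 ± 0.34 (SE) and an edgeR adjusted p of 0.00188. The pooled counts were 15 in GM-CSF and 289 in SCF control lines, a rate ratio of 0.373 with a 95% interval of 0.206 to 0.626 that covers counting error only.

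Hist1h2bc had 60.9, 136, 68.1 and 66.5 CPM in the control lines of GM-CSF clones 19 to 22, against 8.69 to 88.0 CPM in SCF controls. The GM-CSF values lie in the upper part of the SCF range or above it, and the 136 CPM of clone 20 rest on 12 counts. The log2 fold change was 0.63 ± 0.18 (SE), with an edgeR adjusted p of 0.00441 and means of 82.9 ± 35.5 CPM (SD, n = 4) and 52.4 ± 18.3 CPM (SD, n = 24). This comparison and the KO comparison above share the SCF control libraries, so its 2 calls are not separate evidence. The plot of both peaks shows the libraries behind them.

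**Figure D5:**
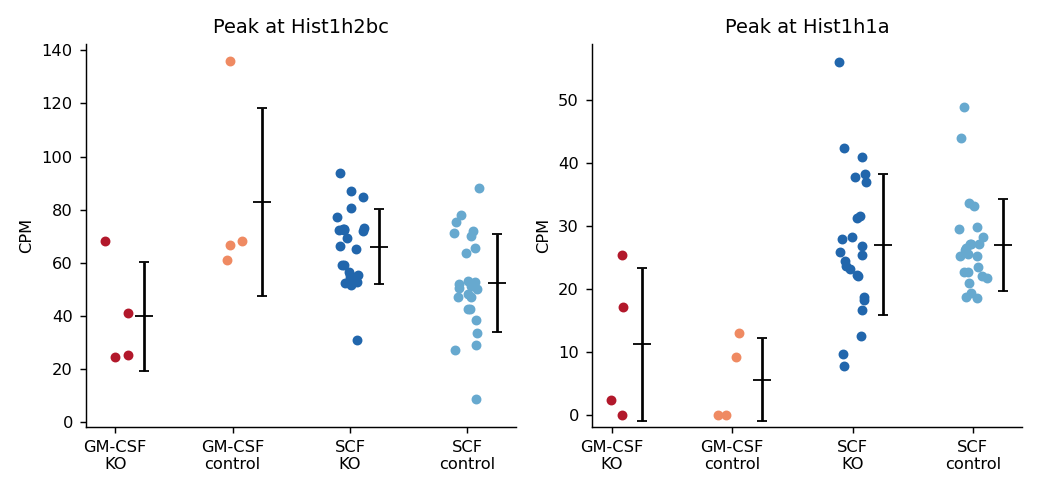
CPM of the Hist1h2bc and Hist1h1a peaks in each library by group, with black bars for the mean ± 1 SD. For Hist1h2bc, SCF KO lines have a mean of 66.1 CPM and SCF control lines one of 52.4 CPM. For Hist1h1a, the 4 GM-CSF control lines, at 0 to 13.0 CPM, lie below all SCF control lines.

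Neither cytokine call survived every setting. Against SCF clones 23 to 29 alone, whose chromosome X share is close to that of the GM-CSF clones, Hist1h1a had a log2 fold change of -1.25 with an edgeR adjusted p of 0.0208, and Hist1h2bc had 0.59 with an edgeR adjusted p of 0.0277. Hist1h1a had an edgeR adjusted p of 0.0224 without clone 21 and 0.0102 without clone 22, and Hist1h2bc had 0.0249, 0.0218 and 0.0215 without clones 20, 21 and 22. Over all alternatives the adjusted p ranged from 0.00118 to 0.104 for Hist1h1a, whose log2 fold change stayed between -1.80 and -1.06, and from 0.00194 to 0.716 for Hist1h2bc. DESeq2 called Hist1h1a and not Hist1h2bc.

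The remaining members stood on both sides of 0, with 24 of 47 positive and a median of 0.04, beside -0.0023 over all peaks tested. H4 peaks had positive values in 9 of 11, with a median of 0.22, led by Hist1h4j at 0.74 (edgeR adjusted p 0.0175, named after its values were seen), a peak with 104.5, 11.3, 33.1 and 35.2 CPM in GM-CSF controls. H3 peaks had a median of -0.22 and H1 peaks one of -0.14. At an unadjusted p under 0.05, 4 members were higher (8.51%) and 2 lower (4.26%), beside 13.9% and 18.4% of all peaks tested. The summed members gave a log2 ratio of -0.04 for GM-CSF over SCF control lines, and its sign turned with the scale, to 0.06 per promoter count and 0.04 with TMM scaling. The share of counts in promoter peaks was 40.0 ± 3.03% in GM-CSF and 43.1 ± 4.11% in SCF control lines, and its part in the single peaks was not removed by the main test. With the share as a covariate both peaks were still called. The progenitor markers, lymphoid markers and erythroid markers given above were also lower in GM-CSF clones, and their part in these differences was not tested.

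The same cytokine comparison in the Tet2 KO lines, which are sister lines of the same clones, called none of 45 members tested with edgeR, and DESeq2 also called none. The background was 10.2% of 9670 peaks, and of the 7194 other promoter peaks 2.21% were called higher and 3.38% lower. At an unadjusted p under 0.05, 1 member was higher (2.22%) and 4 were lower (8.89%), beside 11.6% and 17.0% of all peaks tested. The values with the smallest p were Hist1h2bg with a log2 fold change of -0.85 (edgeR adjusted p 0.0192) and Hist1h1a with -1.20 ± 0.43 (SE; edgeR adjusted p 0.0378). Hist1h1a had 0, 25.4, 17.1 and 2.28 CPM in GM-CSF KO lines and at least 7.69 CPM in SCF KO lines (median 25.6), so here the groups overlap, and the 25.4 CPM of clone 20 are 1 count. Without clone 22 its log2 fold change was -0.56.

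Hist1h2bg had 24.5, 0, 27.7 and 27.4 CPM in GM-CSF KO lines and 23.1 to 79.3 CPM in SCF KO lines (median 54.3). The 0 lies below the SCF range and the other 3 values near its low end. On the other side, Hist1h4h had a log2 fold change of 0.41 (edgeR adjusted p 0.126) and Hist4h4 one of 0.46 (edgeR adjusted p 0.259). Of the 45 members, 33 were negative, with a median of -0.18 beside -0.04 over all peaks tested. H4 peaks again had a positive median, 0.23, with 7 of 11 above 0, while 11 of 12 H2B and 9 of 10 H3 peaks were negative. DESeq2's scaling moved the median of all peaks in this comparison to -0.14.

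For Tet2 loss in GM-CSF clones, 47 members were tested and edgeR called none, as did DESeq2. Of all 12405 peaks 0.00806% were called, so this comparison of 4 pairs called almost nothing. At an unadjusted p under 0.05, no member was higher and 1 was lower (2.13%), Hist1h4d, beside 2.26% and 3.82% of all peaks tested. This H4 peak had 24.5, 76.2, 27.7 and 16.0 CPM in the KO lines of clones 19 to 22 and 78.3, 56.7, 49.7 and 39.1 CPM in their control lines. It was lower in KO in 3 of 4 clones, with a log2 fold change of -0.95 (edgeR adjusted p 0.675), and the exception, clone 20, rests on 3 counts in the KO line.

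Hist1h4h had 171, 102, 76.8 and 77.6 CPM in the KO lines of clones 19 to 22 and 95.7, 68.0, 44.2 and 71.7 CPM in their control lines. It was higher in KO in 4 of 4 clones, with a log2 fold change of 0.45 (edgeR adjusted p 0.824), but 171 and 102 CPM are 7 and 4 counts. Hist1h2bc had 24.5, 25.4, 68.2 and 41.1 CPM in KO lines, against 60.9, 136, 68.1 and 66.5 CPM in control lines. Its log2 fold change was -0.46 (edgeR adjusted p 0.826), and clone 21, the deepest KO library at that peak with 32 counts, showed the same level in both lines. Hist1h1c, a linker histone gene, had 0.49 (edgeR adjusted p 0.903) with 0, 0, 40.5 and 43.4 CPM in KO and 17.4, 22.7, 27.6 and 28.7 CPM in control lines. The median of the 47 members was -0.10, beside -0.05 over all peaks.

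Whether the KO effect differed between the cytokines was tested as a term of 1 fit over all 56 libraries. edgeR called no member among 47 and no peak among 12405 (0%), and DESeq2 called no member. Hist1h2bc had the smallest p of the members, with a difference in log2 fold change of -0.82 ± 0.27 (SE; edgeR adjusted p 0.846). Hist1h4d had -0.91 (edgeR adjusted p 0.994), while Hist1h2bh, an H2B gene, and Hist1h1c had 0.48 and 0.47 (both with an edgeR adjusted p of 0.994). The value of Hist1h2bh changed direction, to -0.067, without GM-CSF clone 22, and the peak had 0 counts in the KO lines of clones 19 and 20. At an unadjusted p under 0.05, no member was higher and 3 were lower (6.38%), beside 1.85% and 2.92% of all peaks tested, and the members' median was -0.18 beside -0.03 over all peaks. The opposite order of KO and control in the summed values of the 2 cytokines is therefore a description of these clones that no single peak's test bears out.

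Genes that act with the clusters were given by role through 106 promoter peaks. Replication-independent histone genes, which supply histone variants outside S phase, had 28 peaks, control genes of histone transcription and mRNA processing had 51, and chaperones that hand histones to DNA had 27. In the Tet2 comparison of SCF clones edgeR called none of 7, 18 and 9 tested peaks of these lists, and DESeq2 called none. At an unadjusted p under 0.05, 1 peak of the variant list, 2 of the control list and 1 of the chaperone list were higher and 1 of the control list was lower. Over all peaks tested, 2.50% were called, and 10.9% were higher and 7.94% lower at an unadjusted p under 0.05. The largest values were at H2afz (0.18), at Ccne1, the cyclin E gene (0.20), at Nfya (0.20) and at Cpsf3, the nuclease of mRNA 3′ ends (-0.25).

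Between GM-CSF and SCF control lines, edgeR called 1 of 11 variant peaks, 1 of 22 control peaks and none of 10 chaperone peaks, where DESeq2 also called none and 2 were higher at an unadjusted p under 0.05. Of all peaks tested 14.7% were called, and 13.9% were higher and 18.4% lower at an unadjusted p under 0.05. The lists are too small to tell their shares from that background. The start of Nfya, which encodes a subunit of NF-Y, the factor that binds CCAAT boxes, was more open in GM-CSF clones (chr17:48409504-48409804). It had 139 ± 32.5 CPM (SD, n = 4) in GM-CSF and 87.6 ± 23.4 CPM (SD, n = 24) in SCF controls, with a log2 fold change of 0.65 ± 0.15 (SE) and an edgeR adjusted p of 0.000509. In KO lines the same peak had 153 ± 15.9 CPM (SD, n = 4) in GM-CSF and 106 ± 30.3 CPM (SD, n = 24) in SCF clones, with 0.68 ± 0.16 (SE) and an edgeR adjusted p of 0.00049. A peak 1113 bp inside H1fx, a linker histone gene outside the clusters (chr6:87980374-87980674), was lower in GM-CSF controls, with 1 count in 4 GM-CSF and 161 counts in 24 SCF control libraries. The rate ratio was 0.0447, with a 95% interval from 0.00112 to 0.252 for counting error only, and the edgeR adjusted p was 9.6e-05.

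The other control genes did not pass the test in the cytokine comparisons. In KO lines edgeR called none of 8 variant and none of 10 chaperone peaks, as did DESeq2, with no peak of either list at an unadjusted p under 0.05. Of 19 control peaks 1 was called, Nfya. Among all peaks tested there 10.2% were called, and 11.6% were higher and 17.0% lower at an unadjusted p under 0.05. The H1fx peak was not among the 8, so its difference was not tested in KO lines. It had means of 0.571 CPM in GM-CSF KO and 9.06 CPM in SCF KO lines. In GM-CSF clones the Tet2 comparison called none of 9, 22 and 10 peaks with either tool, and 1 of these peaks, at Ccne1, was higher at an unadjusted p under 0.05. Of all peaks 0.00806% were called there, and 2.26% were higher and 3.82% lower at that unadjusted limit. None of these companion peaks was called for the difference of the KO effect between cytokines with either tool, and none had an unadjusted p under 0.05, beside 1.85% higher and 2.92% lower of all peaks. Values at Npat itself stayed between 71.5 and 106 CPM over the 4 group means.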

How the data were processed

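Bulk ATAC-seq libraries of 28 clone pairs were analysed. The authors deposited raw counts, whole numbers per peak and library with no normalization, for peaks of 301 bp built on MACS2 summits in single-cell data of the study and on ImmGen peaks. Per the labels, Bowtie2, SAMtools and Picard were used with mm10. Versions, the unit counted, duplicate removal and the filter on mapping quality are not given in the sources at hand, and intervals cover counting error only. Groups followed the treatment and genotype labels. The titles of clones 20, 21 and 22 name SCF where treatment, design text and library names give GM-CSF, and they were placed with GM-CSF.

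Peaks were placed with GENCODE vM21. CPM are counts scaled to a common total over all peaks. Peaks passing filterByExpr (minimum count 10) entered edgeR 4.0.16 and its quasi-likelihood test (R 4.3.3, limma 3.58.1) with TMM scaling, Benjamini-Hochberg adjustment over all peaks tested and a limit of 0.01. KO was compared with control in the 48 SCF libraries with the clone as a block, cytokines were compared in 28 control and in 28 KO libraries without one, and a joint model of the 56 libraries, again blocked by clone, gave the KO effect in GM-CSF and how it differed from SCF. The lines of a number descend from 1 clone, so the labels pair them. Deviations from the group means correlated within a clone at 0.0272 to 0.243 in SCF (median 0.0894, against -0.00254 with other clones) and at 0.0152 to 0.0671 in GM-CSF. Alternatives were DESeq2 1.42.0, upper-quartile scaling, other filters, no block, subsets of clones, the promoter share as a covariate, a window of 1 kb, a limit of 0.05 and other scales for summed CPM. Of 564 library pairs within a group, 13 did not differ beyond counting noise; each was named as a separate clone, most include a shallow library, and all were kept. Near copies were sought with BLAST+ 2.17.0, motifs and all else with Python 3.11.15. The fits were tested on simulated data.

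Named peaks were the 8 highest, the highest and lowest of each class and cluster, the members called in each comparison or, where none was, the 2 per direction with the smallest p, and companion peaks that were called. Others were named after their values were seen, as stated beside some of them. This also holds for the Hist1h2bb peak among those away from a start. It holds as well for H2afz, Ccne1, Nfya and Cpsf3 in the Tet2 comparisons. The members, lists and tests were chosen with earlier results of these data known.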

Additional observations from a re-analysis of the deposited data

Results flagged for a closer look

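Among the named peaks and the summed levels of all members, of each class and of each cluster, 68 groups of 4 GM-CSF libraries were taken. They were checked for a value far from the other 3, by its gap to the nearest over the whole range (Dixon's criterion at 95%). The 68 include groups without any count, such as Hist3h2a(+1018), where no gap can be formed. In all, 10 held one. Chance alone flags about 1 in 20 groups of continuous values, or 3.4 here, but that rate does not hold for sparse counts, so 10 cannot be read as an excess. Of these, 3 were in clone 20, a shallow clone: 136 CPM at Hist1h2bc in the control line, against 68.1 CPM for the next, 34.0 CPM at Hist1h4a in the control line, against 83.5 CPM for the next, and 0 CPM at Hist1h2bg in the KO line, against 24.5 CPM, which is 1 count, for the next. The others are single libraries with a few counts where the other 3 had 0, a pattern that this criterion always flags. They were Hist1h1t(-707) with 1.30 CPM in the control line of clone 22, Hist1h2bm(+1613) with 1.84 CPM in the control line of clone 21, Hist4h4(+1941) with 2.28 CPM in the KO line of clone 22, Hist2h3b(-820) with 2.13 CPM in the KO line of clone 21 and 2.61 CPM in the control line of clone 22, and Hist1h4n(+1487) with 2.28 CPM in the KO line of clone 22 and 1.84 CPM in the control line of clone 21.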

How the results depend on the processing

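For Tet2 loss in SCF clones, 1 histone peak was called. The count was 0 with DESeq2, with upper-quartile scaling, with the promoter share as a covariate, in clones 1 to 18 alone and in clones 23 to 29 alone, 2 with a minimum count of 5 (Hist1h2bc and Hist1h2bn, an alternative chosen after seeing the data) and without the clones that hold a shallow library (Hist1h2bc and Hist1h2bk), and 3 at a limit of 0.05. Without the replicate block it stayed at 1, Hist1h2bc at 0.36 with an edgeR adjusted p of 0.00808, and leaving out the block changed no call in the other KO comparisons. For GM-CSF against SCF control lines, 2 were called. The count was 1 with DESeq2, 0 with no filter on low counts, 0 without the clones that hold a shallow library, 0 against SCF clones 23 to 29 alone, and from 0 to 2 when a GM-CSF clone was left out, with 0 without clone 21 or 22. Leaving out the clones with a shallow library kept only clones 21 and 22 of the GM-CSF clones, in every comparison that uses them. At a limit of 0.05 it was 3. In KO lines the count was 0 under every alternative except the limit of 0.05, where it was 2. The KO comparison in GM-CSF clones and the difference gave 0 under every alternative run, which with 4 pairs shows no stability. One value reversed, the difference at Hist1h2bh, which ranged from -0.067 (without clone 22) to 0.63 when a GM-CSF clone was left out. Of 147 alternative values for named peaks, 129 kept direction and side of the limit and 17 kept the direction only. All 17 are lost calls of peaks called in the main fits. The 129 include peaks that were not called in the main fit and stayed so, and they do not measure how stable the calls are. The fit with no filter and the clone block was not run. The cause of these shifts was not tested. Depth limits the single peaks, with a median of 5 counts per peak and library.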
